A study of Andropogon gerardi with 36 samples.

Results

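Plots 7 and 10 were partner plots of a field study of big bluestem, Andropogon gerardi, a dominant warm-season grass of the tallgrass prairie. Their arrays were found from the sample titles, which name the plot in each channel, and they numbered 4 of the 36 arrays in the series. In August 1 array set subplot 1 of plot 7 against subplot 1 of plot 10, and another set subplot 4 of plot 7 against subplot 4 of plot 10. The same comparison was made in June for each subplot. All plots stood under rainout shelters on the Konza Prairie in an experiment on altered rainfall and warming, but the sources used here do not say how plot 7, plot 10 or their subplots were treated. The August and June arrays of subplot 1 carried the same plot, subplot and letter codes, while those of subplot 4 carried other letters, and the meaning of the letter is unknown here. The labels name no tissue, number of plants or age.

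Every array was a 2-colour hybridisation, in which RNA of one sample is labelled with Cy5, RNA of another with Cy3, and each probe returns the ratio between both colours. The probes were designed for maize, a related grass, so bluestem RNA binds each probe according to how well the sequences match, and probes of one maize gene can report related bluestem transcripts. Among the stress responses of grasses, Hsp70 chaperones hold unfolded proteins and are induced by heat, and superoxide dismutases remove the superoxide radicals that accumulate in heat and drought. Chromatin proteins with an HMG box or a methyl-CpG-binding domain, tubulins and ribosomal proteins belong to the general machinery of the cell.

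The arrays were balanced for dye. Plot 7 was in Cy3 on the August subplot 1 array and the June subplot 4 array, and in Cy5 on the August subplot 4 array and the June subplot 1 array. Ratios below are log2 values turned to plot 7 over plot 10, on the assumption that the deposited values are Cy5 over Cy3, and where they are called deposited they were not turned. The sources used here do not state that direction. If it is the reverse, every turned ratio below changes sign, while the deposited ones keep the sign printed, so a turned sign can be set against the sign on another array but does not tell in which plot a transcript was more abundant. The mean of the 4 turned ratios holds the plot difference, and a dye effect that is equal on the 4 arrays cancels in it. Such an effect also cancels in August minus June and in subplot 1 minus subplot 4 of the turned ratios. A dye effect that differs between arrays need not cancel. The mean of the 4 deposited ratios holds the dye effect together with the part of the plot difference that depends on month and subplot jointly, and these cannot be told apart.

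Of the 19200 probes, 5558 had a value on the August subplot 1 array, 7395 on the August subplot 4 array, 8038 on the June subplot 1 array and 4992 on the June subplot 4 array. The June subplot 1 array stood apart: the other 10 June arrays had at most 6039 values. Its spread of log2 ratios, as the scaled median absolute deviation, was 0.31, below the 0.38 to 0.81 of the other 33 arrays used. The 3 remaining arrays of plots 7 and 10 had spreads of 0.50 (August, subplot 1), 0.55 (August, subplot 4) and 0.50 (June, subplot 4). All 4 arrays gave a value for 2446 probes, 519 of them with 1 gene symbol. Values appeared on both August arrays and no June array for 446 probes, and on both June arrays and no August array for 287. A gap in the files can stem from a weak spot as well as from an absent transcript.

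The first question was whether one plot differed from the other in the same way on all arrays. It seldom did. Of 2391 probes with a value other than 0 on all 4 arrays, 169 had the same sign on all of them, 89 positive (3.72%) and 80 negative (3.35%), which is 7.07% (95% Wilson interval 6.11% to 8.17%, treating probes as independent, which they are not). By contrast 345 probes (14.4%) had one sign on both August arrays and the opposite sign on both June arrays. Another 300 (12.5%, an equal share of the 8 possible arrangements) had opposite signs in subplot 1 and subplot 4. The arrangement in which only the August subplot 4 array differed was as frequent as that of the months, with 348 probes (14.6%). Those with another single array differing held 10.6% to 11.5%. The most frequent of the 8 possible arrangements, with 429 probes (17.9%), was the one in which the deposited ratio kept its sign on all 4 arrays. In 294 of those 429 the deposited ratio was negative.

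**Figure D1:**
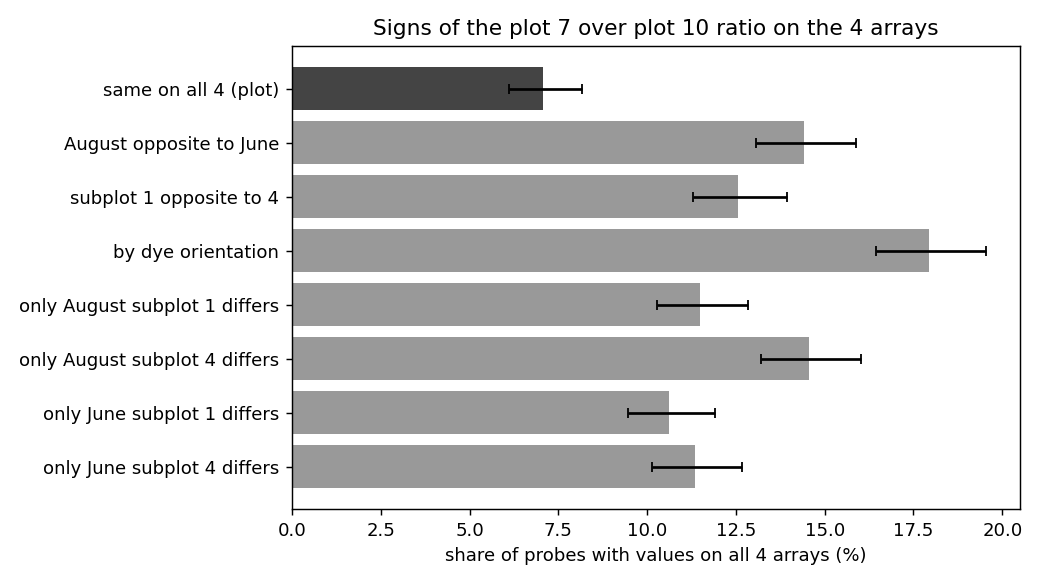
Share of the 2391 probes, in percent, that showed each of the 8 arrangements of signs of the plot 7 over plot 10 ratio on the 4 arrays, with 95% Wilson intervals over probes as error bars. The dark bar, the same sign on all 4 arrays, is the shortest at 7.07%, and the bar for signs that follow the dye orientation is the longest at 17.9%.

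Correlations across the 2446 probes gave the same picture, as a description, since probes are not independent and all arrays share the platform. Between the 2 August arrays the turned ratios had r = -0.233, and between the 2 June arrays r = -0.0628. Within subplot 1, August against June gave r = -0.143, and within subplot 4 it gave r = -0.118. All 4 values turn positive for the deposited ratios. The remaining array pairs, August subplot 1 with June subplot 4 and August subplot 4 with June subplot 1, ran in the same dye orientation and had r = -0.0299 and r = -0.0363. Of the sum of squares over these probes, 16.8% lay in the mean of the turned ratios, 24.9% in August against June, 26.2% in subplot 1 against subplot 4 and 32.1% in the mean of the deposited ratios. Equal parts would have been 25% each.

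Within-pair likeness was compared with that of the other pairs over all probes shared by 2 arrays. The turned ratios of plots 7 and 10 had a mean r of -0.0881, with 1 of 6 array pairs above 0. The other pairs of plots had means of -0.0332 (plots 2 and 3), 0.0064 (plots 6 and 9), 0.0388 (plots 4 and 5), 0.0998 (plots 13 and 15) and 0.113 (plots 11 and 12). Plots 7 and 10 and plots 2 and 3 are the pairs that were run in both dye orientations. The other pairs ran in 1 orientation, so their turned and deposited r are the same. A dye effect shared by their arrays would raise that r, so their turned means are not like for like with that of plots 7 and 10. As deposited, the mean r was 0.0793 for plots 7 and 10, with 5 of 6 array pairs above 0, against 0.131 for plots 2 and 3, with 26 of 28 above 0.

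A limma fit over 34 arrays with a dye term, on 2358 probes with values on all 4 arrays of plots 7 and 10 and on at least 17 arrays in all, called 0 probes for the plot difference (0% at an adjusted p under 0.05). An unadjusted p under 0.05 was found for 27 probes, fewer than the 118 that 5% of them would be, and for 17 without the June subplot 4 array, 47 without June subplot 1 and 50 without August subplot 1. The median standard error of a plot difference was 0.27, against an SD of 0.20 between the probes' estimates. The annotated probes with the smallest p were LOC542533 (probe 17642) at 0.40 ± 0.17 (SE), LOC542438 (probe 1765) at -0.69 ± 0.33 and LOC542420 (probe 10888) at 0.34 ± 0.17, with a limma adjusted p of 0.9998 for each. LOC542438 is a case of a mean that hides disagreement: the probe read -0.07 and -1.67 on the August arrays of subplots 1 and 4, and -1.60 and 0.59 on the June arrays.

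The heat shock genes hsp70-4 and hsp70-5 showed the largest contrast between arrays among the named stress genes. The hsp70-4 mean was -0.83 on the August subplot 1 array, 0.95 on the August subplot 4 array, -0.21 on the June subplot 1 array and -0.04 on the June subplot 4 array. The hsp70-5 mean was -0.90 and 0.80 on the August arrays of subplots 1 and 4, and -0.14 and 0.23 on the June arrays. Both genes were thus far from 0 on the August arrays, with opposite signs in the 2 subplots, and near 0 on the June arrays. Single probes bore the same signs: on the August subplot 1 array 15 of 15 hsp70 probes were negative, and on the August subplot 4 array 19 of 21 were positive. In June 12 of 15 were negative in subplot 1 and 12 of 15 positive in subplot 4. In RNA of whole samples, fewer cells of a type and less RNA per cell cannot be told apart.

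Since the plot 7 sample was in Cy3 on the first August array and in Cy5 on the second, the deposited hsp70 ratios had 1 sign in August. They were 0.83 and 0.95 for hsp70-4 and 0.90 and 0.80 for hsp70-5 on the August arrays of subplots 1 and 4. On the June arrays the deposited means were -0.21 and 0.04 for hsp70-4 and -0.14 and -0.23 for hsp70-5. On the 9 other August arrays the deposited hsp70-4 mean ran from -0.81 to 1.24 with a median of -0.06, and 3 of 9 were above 0, and for hsp70-5 the median was -0.04. On the 9 other June arrays the deposited medians were 0.31 for hsp70-4, with a range of -0.46 to 1.20, and 0.39 for hsp70-5, with a range of -0.27 to 1.21. The June values of plots 7 and 10 were below these medians and inside the ranges. A dye effect on these August arrays and a plot difference that ran opposite ways in the 2 subplots cannot be told apart.

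Over all 4 arrays the turned mean was -0.03 ± 0.74 for hsp70-4 and 0.00 ± 0.71 for hsp70-5 (SD, n = 4), and the deposited mean was 0.40 ± 0.58 and 0.33 ± 0.60. In the limma fit of subplot 1 minus subplot 4, all 9 hsp70 probes tested had a negative estimate, with a median of -1.05. Over all 2358 probes the median was 0.03 and 52.6% were positive. None of the 9 passed, and 2 had an unadjusted p under 0.05. A dye effect on the August arrays alone would stay in subplot 1 minus subplot 4. The hsp70-5 probe 5655 had the largest estimate among the 9, -1.68 ± 0.59 (SE, limma adjusted p = 0.998). Without the August subplot 1 array it was -1.09, with subplot 1 then held by June alone. For August minus June the median of the 9 was -0.06, with 3 positive and 6 negative.

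**Figure D2:**
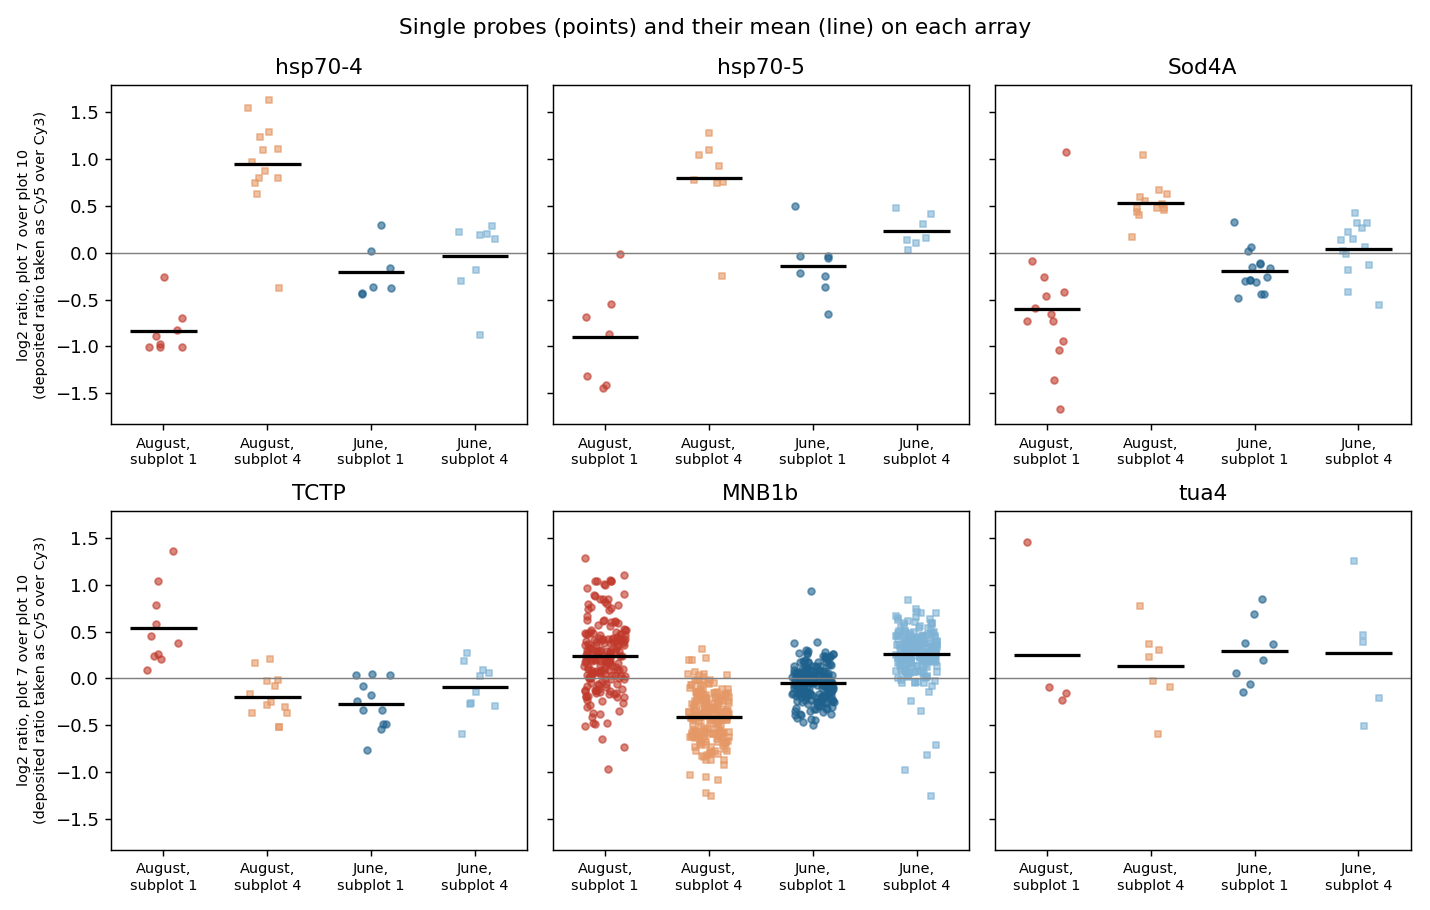
Log2 ratios, plot 7 over plot 10, of single probes (points) and their mean (line) for 6 genes on each array, with the August arrays left of the June arrays. All 15 hsp70 probes lie below 0 on the August subplot 1 array and 19 of 21 lie above 0 on the August subplot 4 array, while the tua4 probes scatter widely around similar means.

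Sod4A, a copper/zinc superoxide dismutase of maize, followed the same order of arrays. Its mean was -0.61 on the August subplot 1 array and 0.53 on the August subplot 4 array, against -0.20 and 0.04 in June. On the August subplot 1 array 1 of 13 probes was positive, and on the August subplot 4 array 13 of 13 were. The mean over arrays was -0.06 ± 0.47 when turned and 0.22 ± 0.40 as deposited (SD, n = 4). Subplot 1 minus subplot 4 was negative for 9 of 10 Sod4A probes tested, with a median of -0.69. The probe with the smallest p, 8120, had -1.36 ± 0.49 (SE, limma adjusted p = 0.998), and 0 of the 10 passed. Without the August subplot 1 array this probe's estimate was -0.68, with subplot 1 then held by June alone, so month and subplot are mixed in it.

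TCTP, a conserved growth-related protein that binds calcium and microtubules, ran the other way in August. Its mean was 0.54 on the August subplot 1 array, where 10 of 10 probes were positive, and -0.19 on the August subplot 4 array, where 2 of 13 were. In June it was -0.28 in subplot 1 and -0.09 in subplot 4. The turned mean was -0.01 ± 0.37 and the deposited mean -0.23 ± 0.26 (SD, n = 4). Of 6 TCTP probes tested, 6 had a negative deposited mean and 0 passed in any of the 4 fits. Only 36.5% of all 2358 probes had a positive deposited mean, so a negative one was common.

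**Figure D3:**
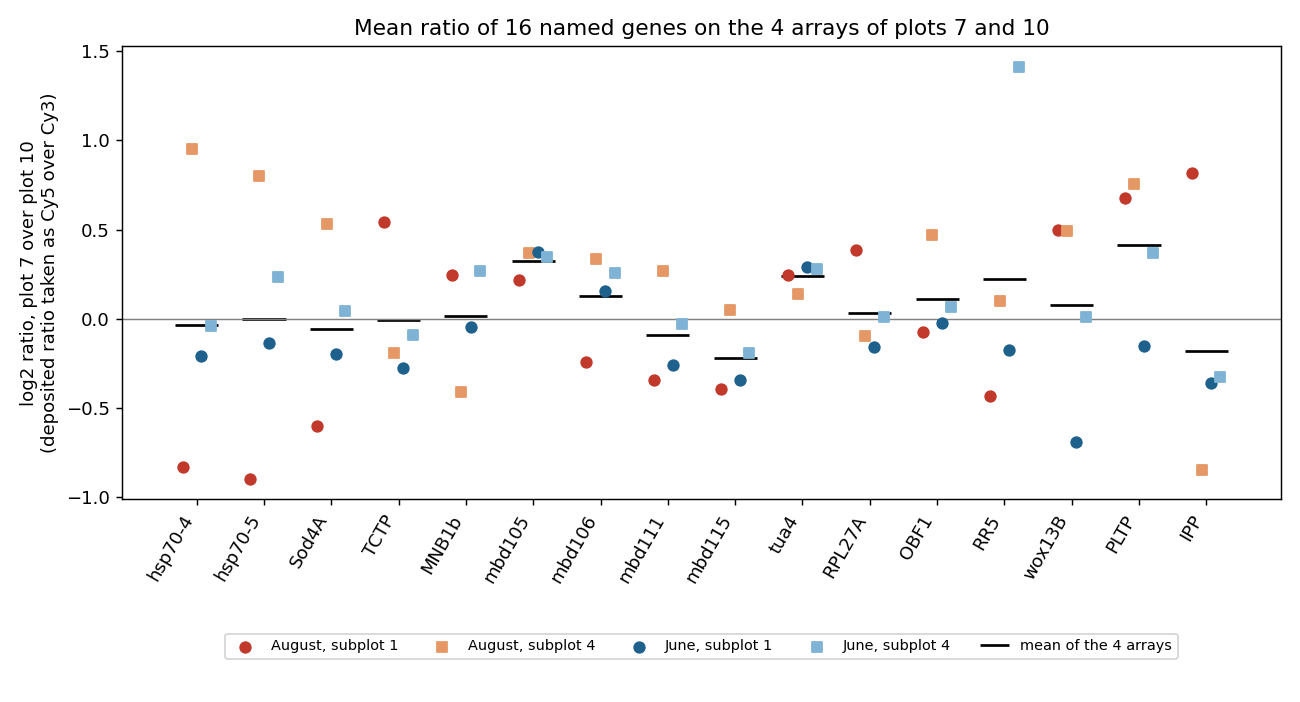
Mean log2 ratio, plot 7 over plot 10, of the 16 genes with a name and a value on all 4 arrays; each point is 1 array and the line is the mean of the 4. The hsp70 genes and Sod4A are spread between the 2 August arrays, while tua4 and mbd105 have 4 points close together above 0.

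Among the chromatin genes, MNB1b, an HMG-type DNA-binding protein, was by far the most heavily represented, with 230 probes on the platform. Its mean was 0.24 and -0.41 on the August arrays of subplots 1 and 4, and -0.05 and 0.27 on the June arrays. Each of these followed the dye: the deposited means were -0.24, -0.41, -0.05 and -0.27, negative on every array. They averaged -0.24 ± 0.15 over the arrays (SD, n = 4), and a two-sided exact permutation of signs gave p = 0.125, the smallest that 4 arrays allow. Of 163 MNB1b probes tested, 162 had a negative deposited mean, and 0 passed. Their median was -0.24 against -0.09 over all 2358 probes, of which 36.5% were positive. The turned mean was 0.01 ± 0.32, with 94 probes positive and 69 negative. On the other 9 August arrays the deposited MNB1b mean ran from -0.26 to 0.64, and on the other 9 June arrays from -1.32 to 0.55.

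The methyl-CpG-binding domain genes encode proteins that bind methylated DNA. Over all their probes the mean was -0.27 on the August subplot 1 array (4 of 16 probes positive), 0.13 on the August subplot 4 array (10 of 18), -0.09 on the June subplot 1 array (7 of 19) and 0.04 on the June subplot 4 array (7 of 13). The August subplot 1 array was thus the lowest and the August subplot 4 array the highest. The mean of mbd105 was positive on every array, at 0.22 and 0.37 in August and 0.37 and 0.34 in June for subplots 1 and 4. Each of these values rests on 2 of its 3 probes, and no mbd105 probe was measured on all 4 arrays. Probe 8018 read 0.68 on the August subplot 1 array, where probe 1648 read -0.25. The mean of mbd115 was -0.40 and 0.05 in August and -0.35 and -0.19 in June. All 4 mbd115 probes tested had a negative plot difference, with a median of -0.19, and 0 passed. The mean of mbd106 was -0.24 and 0.34 in August and 0.15 and 0.25 in June, and the only mbd111 probe read -0.35 and 0.27 in August and -0.26 and -0.03 in June. For mbd106, mbd111 and mbd115 the order had the same lowest and highest array as the group. Of the genes not measured on all arrays, mbd101 read -0.72 on the August subplot 1 array and -0.16 on the June subplot 1 array, and mbd109 read -0.08 and -0.86 in August and -0.14 in June subplot 1. The whole chromatin list had 171 probes tested with 0 called in each of the 4 fits, and 96 of the 171 were positive for the plot difference, beside 53.9% positive over all 2358 probes.

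The alpha-tubulin gene tua4, a subunit of microtubules, had the most even set of means. They were 0.25 and 0.14 in August and 0.29 and 0.28 in June for subplots 1 and 4. They averaged 0.24 ± 0.07 (SD, n = 4), and those of mbd105 0.33 ± 0.07, each with p = 0.125 by the exact permutation of signs, again the smallest possible. Its single probes were far less even. On the August subplot 1 array 1 of 4 tua4 probes was positive, and probe 14365 alone, at 1.46, kept that mean above 0. With only the 2 probes measured on all arrays, 146 and 1662, the tua4 mean was 0.17. The limma fit of gene means gave a plot difference of 0.24 ± 0.20 for tua4 and 0.33 ± 0.26 for mbd105 (SE), with a limma adjusted p of 0.9998 for both.

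The ribosomal protein gene RPL27A had means of 0.38 and -0.10 in August and -0.16 and 0.01 in June, with no common sign. Its deposited means were -0.38, -0.10, -0.16 and -0.01, averaging -0.16 ± 0.16 over the arrays (SD, n = 4), also with p = 0.125 by the exact permutation of signs. The transcription factor gene OBF1, which encodes a bZIP protein, read -0.08 and 0.47 in August and -0.02 and 0.07 in June. RR5, a response regulator of cytokinin signalling, reached 1.42 on the June subplot 4 array on 1 probe, against -0.18 on the June subplot 1 array, -0.44 on the August subplot 1 array and 0.10 on the August subplot 4 array. The homeobox gene wox13B was positive on both August arrays (0.50 and 0.49) and lower on the June arrays (-0.69 and 0.01). None of its probes was measured on all 4 arrays, so these means do not follow 1 probe. PLTP, with a single probe for a lipid transfer protein, read 0.68 and 0.76 in August and -0.15 and 0.37 in June, a plot difference of 0.41 ± 0.23 (SE) that did not pass. The 2 probes of IPP averaged 0.82 and -0.85 in August and -0.36 and -0.33 in June.

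Beside these 16 named genes, 16 more had values on 1 to 3 of the 4 arrays and 12 had none. The probe of lls1, a gene of chlorophyll breakdown, read 1.75 on the August subplot 4 array and 0.80 on the June subplot 1 array, the 2 arrays with plot 7 in Cy5, and had no value on the others. The only probe of Cab-m7, a chlorophyll a/b-binding protein, read -0.10 on the August subplot 1 array and -0.02 on the June subplot 1 array. The oxylipin genes opr5, opr7 and opr8 had a value on 1 array each, at 0.38 (August, subplot 4), 0.41 (June, subplot 4) and 0.18 (August, subplot 4). The name patterns searched for water deficit, aquaporins, photosynthesis and C4 metabolism, sugar and starch, and markers of leaf, root, seed and pollen matched no symbol, and they miss genes with other symbols, such as Cab-m7 and the zeins. The zein genes gz27 and dzs18, which encode seed storage proteins, had a value on the June subplot 1 array only, at 0.09 and 0.11. Ratios carry no level, so the tissue could not be checked, and no opr probe could be tested.

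Locus numbers without a description named 145 further genes with a value on all 4 arrays. Including the 16 named genes, 14 of 161 gene means (8.70%) kept 1 turned sign on all 4 arrays, 10 positive and 4 negative. The share over probes was 7.07%. The values below describe the genes with the largest means of each kind and were chosen for that size. Positive on all arrays, LOC542213 read 0.42 and 0.58 in August and 1.25 and 0.17 in June for subplots 1 and 4, on 1 probe. LOC542716 read 0.42 and 0.23 in August and 0.64 and 0.74 in June. Its mean was 0.51 ± 0.23 (SD, n = 4), and those of LOC542765, LOC542211 and LOC542385 were 0.40 ± 0.18, 0.39 ± 0.29 and 0.34 ± 0.20. No LOC542765 probe was measured on all 4 arrays. On the negative side LOC541821 had -0.13 and -1.77 in August and -0.06 and -0.96 in June, so its size came from the subplot 4 arrays. LOC542573, LOC732827 and LOC542537 were the other 3 negative genes, with means of -0.26 ± 0.23, -0.17 ± 0.19 and -0.12 ± 0.18.

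**Figure D4:**
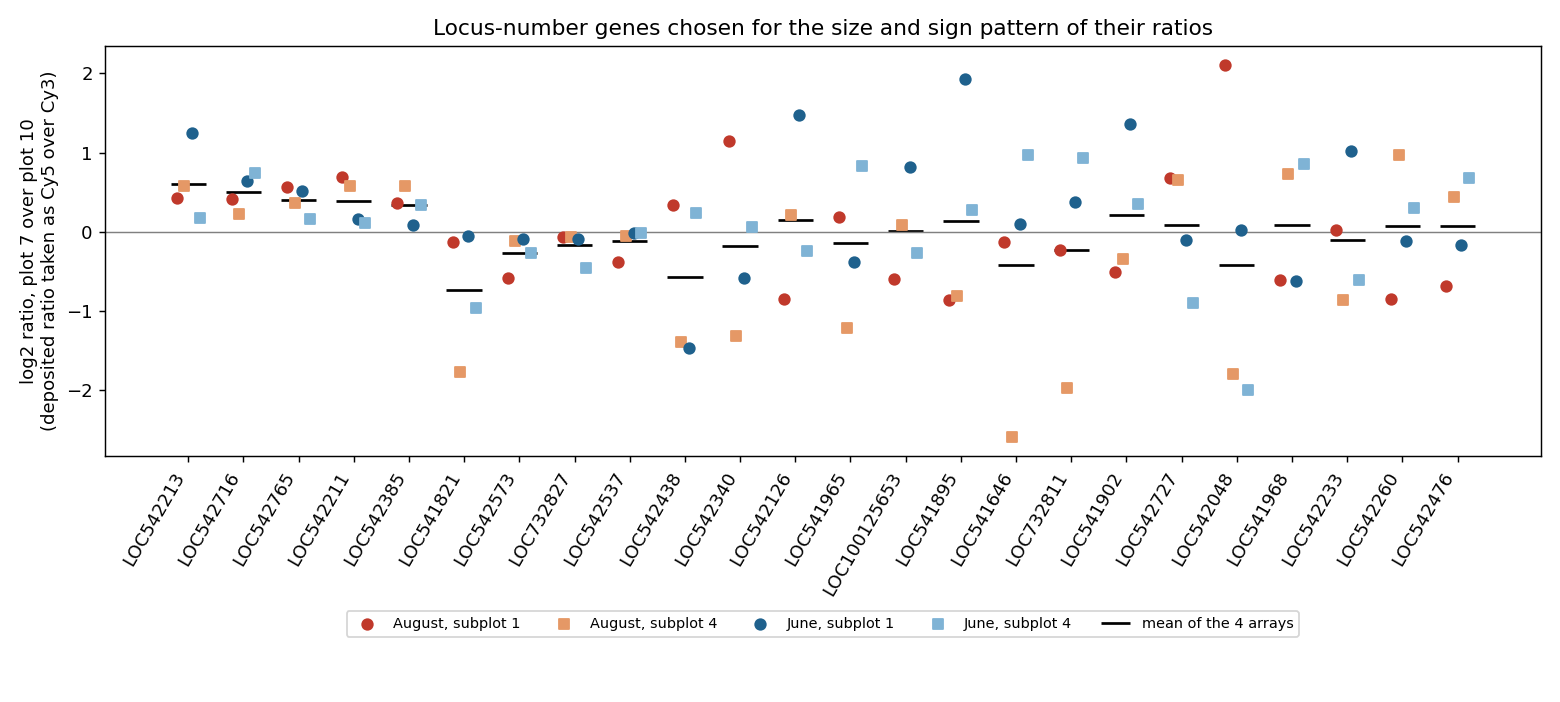
Mean log2 ratio, plot 7 over plot 10, of 24 locus-number genes chosen for size among those with a given arrangement of signs; each point is 1 array and the line is the mean of the 4. From left to right: 5 positive and 4 negative on all arrays, 5 with signs that follow the dye, 5 with August opposite to June and 5 with subplot 1 opposite to subplot 4.

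Among genes with opposite signs in the 2 months, the largest gaps were in LOC541895, LOC541646 and LOC732811. LOC541895, on 1 probe, read -0.86 and -0.81 in August and 1.93 and 0.28 in June, a difference of -1.94. LOC541646 read -0.13 and -2.59 in August and 0.10 and 0.97 in June, and LOC732811 read -0.23 and -1.97 in August and 0.38 and 0.93 in June. In these 2 genes the August subplot 4 array carried most of the difference. LOC541902 differed by -1.28 between August and June, and LOC542727 by 1.16, with no LOC542727 probe measured on all 4 arrays. No probe of 2358 was called by limma for August minus June (0, or 0%), while 67 had an unadjusted p under 0.05. That number was 37 without the June subplot 4 array and 127 without the August subplot 4 array. The annotated probes with the smallest p were LOC732811 (probe 133) at -1.79 ± 0.66, LOC541902 (probe 15788) at -1.28 ± 0.49 and LOC541895 (probe 12669) at -1.94 ± 0.79 (SE, limma adjusted p = 0.997 each). The LOC541895 estimate was -1.25 without the August subplot 4 array, with August then held by subplot 1 alone.

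Among genes with opposite signs in the 2 subplots, the widest gap was that of LOC542048. Its single probe 14506 read 2.11 on the August subplot 1 array and -1.80 on the August subplot 4 array, against 0.02 and -1.99 in June. Subplot 1 minus subplot 4 was 2.96 ± 0.77 (SE, limma adjusted p = 0.998). It was 1.82 without either the August subplot 1 or the June subplot 4 array. Without either the June subplot 1 or the August subplot 4 array it was 4.10. Each of these values set 1 subplot 1 array against 1 subplot 4 array of the other month, so month and subplot are mixed in it. LOC541968 read -0.60 and 0.73 in August and -0.61 and 0.86 in June, nearly the same in both months, with a difference of -1.40, though neither of its 2 probes was measured on all 4 arrays. LOC542233, of which no probe was measured on all 4 arrays either, LOC542260 and LOC542476 differed by 1.26, -1.12 and -0.98. For this difference limma made 0 calls among 2358 probes (0%), and 59 had an unadjusted p under 0.05. Without the August subplot 1 array 38 did, and without the June subplot 1 array 114 did. It compares the plot difference between subplots, and no array set subplot 1 of a plot against its subplot 4.

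The genes whose signs followed the dye were led by LOC542438 and LOC542340. As deposited LOC542438 read -0.33 and -1.39 in August and -1.47 and -0.24 in June, with a mean of -0.86 ± 0.66 (SD, n = 4), and its 2 probes measured on all arrays had deposited means of -0.95 and -0.99. LOC542340 had a deposited mean of -0.77 ± 0.57, LOC542126 of 0.69 ± 0.60, LOC541965 of -0.65 ± 0.46 and LOC100125653 of 0.44 ± 0.33. No probe of LOC541965 or LOC100125653 was measured on all 4 arrays. For the deposited mean 0 of 2358 probes passed in limma (0%), and 110 had an unadjusted p under 0.05, or 71 without the August subplot 1 array. Its smallest p among annotated probes belonged to 2 probes of the same gene with opposite signs, LOC542316 probe 2840 at 0.87 ± 0.25 and probe 6508 at -1.54 ± 0.45 (SE), and to LOC100037748 (probe 6847) at -0.53 ± 0.17. Their limma adjusted p ran from 0.425 to 0.624.

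Finally the 4 arrays were set against the 9 other August and 9 other June arrays. The number of values averaged 6476.5 on the August arrays of plots 7 and 10 and 7917.2 on the others, and 6515 on the June arrays against 3745 on the others. The exact permutation test within months gave p = 0.444 (two-sided) for the difference averaged over months, and August and June differed in opposite directions. The spread of ratios averaged 0.52 in August, against 0.54 on the other arrays, and 0.41 in June, against 0.57 (exact permutation p = 0.140, two-sided). The share of values past a 2-fold ratio was 8.89% against 9.95% in August and 5.82% against 12.3% in June (exact permutation p = 0.0929, two-sided). The mean size of the gene ratio, without its sign, was compared for the 16 named genes. It was larger in plots 7 and 10 for IPP, at 0.84 against 0.24 in August and 0.35 against 0.22 in June (exact permutation p = 0.00952, two-sided, adjusted p = 0.152 over 16 genes). IPP had a value on 8 of the other August arrays and 5 of the other June arrays. For the hsp70 genes the sizes were 0.89 (hsp70-4) and 0.85 (hsp70-5) against 0.42 and 0.44 in August, but 0.13 and 0.19 against 0.52 and 0.54 in June (exact permutation p = 0.878 and p = 0.916).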

How the data were processed

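The authors deposited log10 ratios of the 2 channels of each array, 1 column per array; that scale was settled from the values, since 82.5% to 98.1% of the values of the 4 arrays equalled log10 of a fraction of integers (denominators to 1000, tolerance 6e-10), against at most 1.39% as log2 or natural log. RNA was isolated with an RNeasy kit and labelled with a Genisphere kit, per the labels' protocols. The scanning, correction, normalization and filtering of the signals, and which channel stands on top of the ratio, were not given in the sources used here.

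Values were converted to log2 and turned to the lower-numbered plot by the titles. Of 36 arrays, 1 was empty and 1 carried 1 plant code in both channels, which left 34. Gene symbols came from the platform annotation: 1800 of 19200 probes had 1 symbol, 23 had several (not named) and 17377 had none; 539 of 583 symbols were locus numbers. The 34 arrays were modelled in limma (version 3.58.1, under R version 4.3.3; checked on simulated data) with a coefficient for each other pair (or pair and month, or pair and subplot) and a dye term, and no dye term for deposited ratios. P-values were Benjamini-Hochberg adjusted over 2358 probes, with a threshold of 0.05. Single values were tested by exact permutation. Alternatives in normalization, probe filter, arrays and dye term were tried. Gene means averaged a gene's probes on each array. Whether arrays came from separate plants is not stated, so p-values measure the spread between arrays. The number of arrays limits the precision. The arrays, gene lists and tests were chosen with earlier results of these data known. Named genes were all those with a name on the 4 arrays, the locus-number genes with the largest means (up to 5) of each sign arrangement, and the 3 annotated probes of smallest p in each fit.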

Additional observations from a re-analysis of the deposited data

Results flagged for a closer look

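Among 43 sets of 4 array values examined, 2 held an array far from the other 3; chance flags about 1 set in 20. LOC542537 read -0.38 on the August subplot 1 array, and LOC732827 read -0.46 on the June subplot 4 array.

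Among all 161 gene means, 26 (16.1%) had opposite signs in subplots 1 and 4 on every array and 20 (12.4%) had opposite signs in August and June. Over the 2391 probes these shares were 12.5% and 14.4%. The 14 genes given here are those of either kind that the text names. Of these, 10 are locus-number genes that were chosen for this arrangement, so their opposite signs are no finding. Between subplots 1 and 4 these differences were -0.32 for OBF1, -1.06 for RR5, -0.69 for Sod4A and -1.03 for hsp70-5. Among locus-number genes they were 2.96 for LOC542048, -1.40 for LOC541968, 1.26 for LOC542233, -1.12 for LOC542260 and -0.98 for LOC542476. Between August and June they were -1.94 for LOC541895, -1.89 for LOC541646, -1.75 for LOC732811, -1.28 for LOC541902 and 1.16 for LOC542727. The difference itself was tested by the limma fit of gene means for 13 of the 14, with adjusted p from 0.348 to 0.988, so none passed. For LOC542727 it was not tested. The OBF1 means of subplot 1 were near 0, at -0.08 in August and -0.02 in June, with 2 of 3 and 2 of 4 probes positive.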

How the results depend on the processing

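The plot difference gave 0 calls under every alternative tried, which were centring, scaling, other probe filters, the 4 arrays alone, gene means, each array left out, no dye term and the replicate block. With the replicate block, arrays of the same pair and subplots as a random block, the calls stayed at 0 for the plot difference (34 probes at an unadjusted p under 0.05) and for August minus June (64). The labels carry no replicate numbers. Each of the 4 arrays was also left out in turn. Without the August subplot 4 array the August minus June estimate of LOC542048 was 4.10, against 1.14 on all 4 arrays. That estimate set August subplot 1 (2.11) against June subplot 4 (-1.99), so month and subplot are mixed in it. Without the June subplot 1 array, probe 14562, which has no symbol, had a subplot 1 minus subplot 4 estimate of -3.79, with subplot 1 then held by August alone. On the 4 arrays alone it was -2.06. Probes at an unadjusted p under 0.05 ranged from 17 to 50 for the plot difference, 37 to 127 for August minus June, 38 to 114 for subplot 1 minus subplot 4 and 71 to 124 for the deposited mean. In such fits a lone array is assumed to vary like the other pairs. Fitted on the 4 arrays alone, subplot 1 minus subplot 4 had 11 calls and the deposited mean 1 call (LOC542316 probe 6508). Those fits rest on the spread between 4 arrays. In the subplot fit all 11 called probes had the same standard error, 0.51, a value pooled over probes. The calls there are thus the probes with the largest differences, whatever their own spread. The cause was not tested. The 11 were 3 positive and 8 negative and included LOC542048 and 5 probes of LOC542737, and hsp70-5 probe 5655 had a limma adjusted p of 0.147 there. Scaling the arrays to one spread raised the probes at an unadjusted p under 0.05 to 69, 179, 143 and 218 for the plot, month, subplot and deposited fits, with 0 calls in each.

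The excess of values per array over other arrays of the same months, 665 probes, turned to -96.9 without the June subplot 1 array; leaving out 1 array gave -96.9 to 1426. The share with opposite signs in subplots 1 and 4 moved to 15.3% where each ratio was at least 0.1 in size. Of 110 alternatives for the gene means 1 moved by 1 SD or more, that of tua4 to 0.17. The SD between arrays was wide, and leaving out 1 array changed the sign of 10 of the 16 gene means: IPP, MNB1b, OBF1, RPL27A, RR5, Sod4A, TCTP, hsp70-4, hsp70-5 and wox13B. The hsp70-5 mean moved to 0.30 and the hsp70-4 mean to 0.23 without the August subplot 1 array, and the RR5 mean to -0.17 without the June subplot 4 array. Of 120 alternatives for the named probes 0 changed sign. That says little, since these probes were chosen for their small p. Changes of probe filter, dye term, replicate block or arrays outside the pair could not change their estimates, since each rests on its own 4 values in a balanced layout. The files give no signal over background.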

Other observations

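The array labelled with 1 plant code in both channels stands outside the comparisons. It carried 13515 values, more than the 9530 at most on the 34 other arrays, with a median of -0.40 and a spread of 1.33 against at most 0.81. Across shared probes its ratios had r = -0.0127 with the August subplot 1 array, -0.0327 with August subplot 4, -0.0219 with June subplot 1 and -0.0652 with June subplot 4, all as deposited. The hsp70-4, hsp70-5 and Sod4A means on it were -0.74, -0.82 and -0.39, and that of MNB1b was 0.38. Beside its median of -0.40 and spread of 1.33, the negative signs are not particular to these genes.

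LOC542737, named after its values were seen, had 5 probes measured on all 4 arrays. Its gene mean was -0.91 on the August subplot 1 array and 2.03 on the August subplot 4 array, against -0.67 and -0.16 in June. On the August subplot 1 array 0 of these 5 probes were positive, and on the August subplot 4 array 5 of 5 were. The gene means stood in the order of arrays seen for the hsp70 genes. They were far larger in size on the August subplot 4 array, but near the -0.90 of hsp70-5 on the August subplot 1 array. Single probes differed in order. Probes 12538 and 6659 were lowest on the August subplot 1 array, at -1.51 and -1.14. Probes 11241, 12434 and 7422 were lowest on the June subplot 1 array, at -1.23, -0.99 and -1.29. For LOC542316 the 2 probes measured on all 4 arrays disagreed on each of them: probe 6508 read 1.06 and -1.62 in August and -1.58 and 1.89 in June, and probe 2840 read -0.92 and 1.45 in August and 0.29 and -0.84 in June.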
